A study of Mus musculus with 6 samples.

Results

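The genes described here are 32 mouse genes of the endoplasmic reticulum (ER) folding machinery and the unfolded protein response. They were chosen by symbol, and all 32 were found among the 55401 rows of the gene count table and passed the low-count filter that left 18277 genes for testing. One symbol, Ddit3, belongs to 2 identifiers in the annotation, and the second of these held no count in any library. The rows cover 9 ER chaperones and co-chaperones, 4 protein disulfide isomerases, 2 secreted ER stress proteins, 3 genes of the sensor branch, 7 genes of ER-associated degradation (ERAD) and of the translocon, and 7 genes of the ATF4 and CHOP arm. The first 3 classes, 15 genes, are called the ER folding genes below.

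The RNA came from F4/80+ cells, labelled macrophages, isolated from tumours that grew after Hepa 1-6 mouse hepatoma cells had been injected into the right lobe of the liver. Tumours were taken 14 days after injection. In the Sms-OE group the injected hepatoma cells had been made to overexpress Sms, the spermine synthase gene, by lentivirus, and 3 libraries carry the genotype label Sms-OE. The 3 libraries of the other group are labelled WT Control. Sms was thus raised in the injected cells, whereas the cells sequenced were sorted from the tumour around them, and no group received further treatment. The sources used here do not give the promoter of the lentiviral construct, any vector in the control cells, or the strain, sex and age of the mice. The labels also do not say whether the 3 libraries of a group came from separate mice, so the p-values measure the spread between these libraries, which may be partly technical. The comparison asks how Sms in the tumour cells bears on the RNA of the macrophages around them.

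Secretory and membrane proteins fold in the ER with the help of chaperones such as BiP and GRP94, of lectin chaperones that bind glycoproteins, and of enzymes that form disulfide bonds. When unfolded proteins build up, the sensors IRE1, ATF6 and PERK respond. IRE1 splices the Xbp1 mRNA, and XBP1 and ATF6 then raise the genes for chaperones and for ERAD, the route by which misfolded proteins are carried to the proteasome. PERK phosphorylates the translation factor eIF2, which slows protein synthesis but favours translation of ATF4, and ATF4 with CHOP raises genes of amino acid supply, redox control and feedback. Other kinases that sense missing amino acids, viral RNA or haem shortage reach ATF4 through the same factor, in what is called the integrated stress response, so the ATF4 arm can act without ER stress. Macrophages use these pathways in cytokine secretion and in phagocytosis.

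The known DNA elements of the pathway can be read in the promoters of several of these genes. They are shown because those found in ER folding genes differed from those found in the ATF4 and CHOP arm. In each class only part of the genes carried one. The search covered the 250 bases before the RefSeq gene start (GRCm38.p6), on both strands, in the 28 genes that have an entry in the promoter table used here, which leaves out Derl1, Manf, Atf6 and Hyou1. The ER stress response element (ERSE) was written as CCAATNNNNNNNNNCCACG. It was found in 7 of the 13 ER folding genes searched, in 1 of 8 sensor, ERAD and translocon genes, and in 0 of 7 genes of the ATF4 and CHOP arm. Among all 32851 promoters in the table, 37 held it (0.113%). In the first 6 sequences below, each read 5′ to 3′ on the gene's own strand, the capitals mark the ERSE, which stands in the reverse direction in Calr and Creld2.

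Hspa5: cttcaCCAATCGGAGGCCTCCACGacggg

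Canx: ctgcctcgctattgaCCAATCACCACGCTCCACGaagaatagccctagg

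Pdia6: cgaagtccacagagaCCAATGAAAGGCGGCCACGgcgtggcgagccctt

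Syvn1: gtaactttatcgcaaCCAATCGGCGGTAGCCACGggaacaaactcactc

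Calr: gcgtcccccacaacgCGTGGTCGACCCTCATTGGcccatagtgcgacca

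Creld2: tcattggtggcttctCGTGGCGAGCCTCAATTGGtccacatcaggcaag

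Herpud1: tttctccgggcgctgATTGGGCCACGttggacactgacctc

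Chac1: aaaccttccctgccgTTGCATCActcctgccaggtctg

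Asns: ccacaTGATGAAActtcc

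The Hspa5 stretch is chr2:34772020-34772048 on the plus strand, with its element 65 to 47 bases before the RefSeq start and inside an exon of a longer GENCODE transcript. Those of Canx (chr11:50325785-50325833, minus strand), Pdia6 (chr12:17266476-17266524, plus strand) and Syvn1 (chr19:6046517-6046565, plus strand) have theirs 145 to 127, 98 to 80 and 44 to 26 bases before the start. The stretches of Calr (chr8:84847060-84847108, minus strand) and Creld2 (chr15:88819505-88819553, plus strand) have theirs 162 to 144 and 126 to 108 bases before it. Hsp90b1, with 2 elements, and Dnajc3 also matched. In Herpud1 (chr8:94386362-94386402, plus strand) the capitals mark ERSE-II, searched as ATTGGNCCACG, which 10 of all promoters held (0.0304%). In Chac1 (chr2:119351034-119351071, plus strand) and Asns (chr6:7693220-7693237, minus strand) they mark the C/EBP-ATF response element bound by ATF4, searched as TGATGNAA and standing in reverse in Chac1. It lies 193 to 186 bases before the start in Chac1 and 23 to 16 in Asns. The Asns stretch, like that of Hspa5, overlaps a GENCODE exon. The shorter C/EBP-ATF element was in 1134 of all promoters (3.45%). It was in 2 of the 7 genes of the ATF4 and CHOP arm, in 0 of the 13 ER folding genes searched, and also in Herpud1. The XBP1 element TGACGTGG was in 185 of all promoters (0.563%) and in 0 of the 28 searched here. A match is a description of these letters and not of a bound site.

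In the count table the libraries held 49833764 to 58154006 counts. Levels below are CPM, counts scaled to a common library size with TMM factors, and fold changes are Sms-OE against control from edgeR's quasi-likelihood test, with Benjamini-Hochberg adjustment over the 18277 genes tested and a threshold of 0.05. Sms itself was at 26.01, 28.31 and 26.23 CPM in the control libraries and at 32.92, 33.20 and 33.13 CPM in the Sms-OE libraries (log2 fold change 0.30 ± 0.094 SE, edgeR adjusted p = 0.0382), a reading in the sorted material that does not check the overexpression by the hepatoma cells. Macrophage markers such as Lyz2 and Itgam were abundant in every library, at 7663 to 7822 summed CPM in controls and 7679 to 8939 in Sms-OE over 14 genes. Neutrophil markers, led by Retnlg and Csf3r, were about as abundant over 12 genes, at 6821 to 9094 and 6241 to 7818 summed CPM, so RNA of neutrophil markers stood beside that of macrophages. Sms-OE replicates 2 and 3 stood apart by their haemoglobin share, 0.485% and 0.512% of counts against 0.00441% to 0.0225% in the other 4 libraries. The mitochondrially encoded share was 5.97% ± 1.1 (SD, n = 3) in controls and 2.57% ± 0.50 in Sms-OE, with no overlap (2-sided exact permutation p = 0.1, the smallest that 3 against 3 allows).

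Across all genes tested, 26.9% changed, 12.5% higher and 14.3% lower in Sms-OE. Of the 32 genes, 8 were higher, 13 were lower and 11 did not pass, so in each direction their share was above that of all genes. The 32 had mean levels from 6.237 CPM (Trib3) to 1141 CPM (Hspa5), and no share was taken over genes of like level. They were also chosen with earlier results of these data known. Among the 15 ER folding genes 10 fell, 1 rose and 4 did not pass, with a median log2 fold change of -0.46, against -0.0006 over all genes. Among the 7 genes of the ATF4 and CHOP arm 4 rose, 0 fell and 3 did not pass, with a median of 0.38. In bulk RNA, fewer cells of a type and less RNA per cell cannot be told apart, and this holds for every value that follows.

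**Figure D1:**
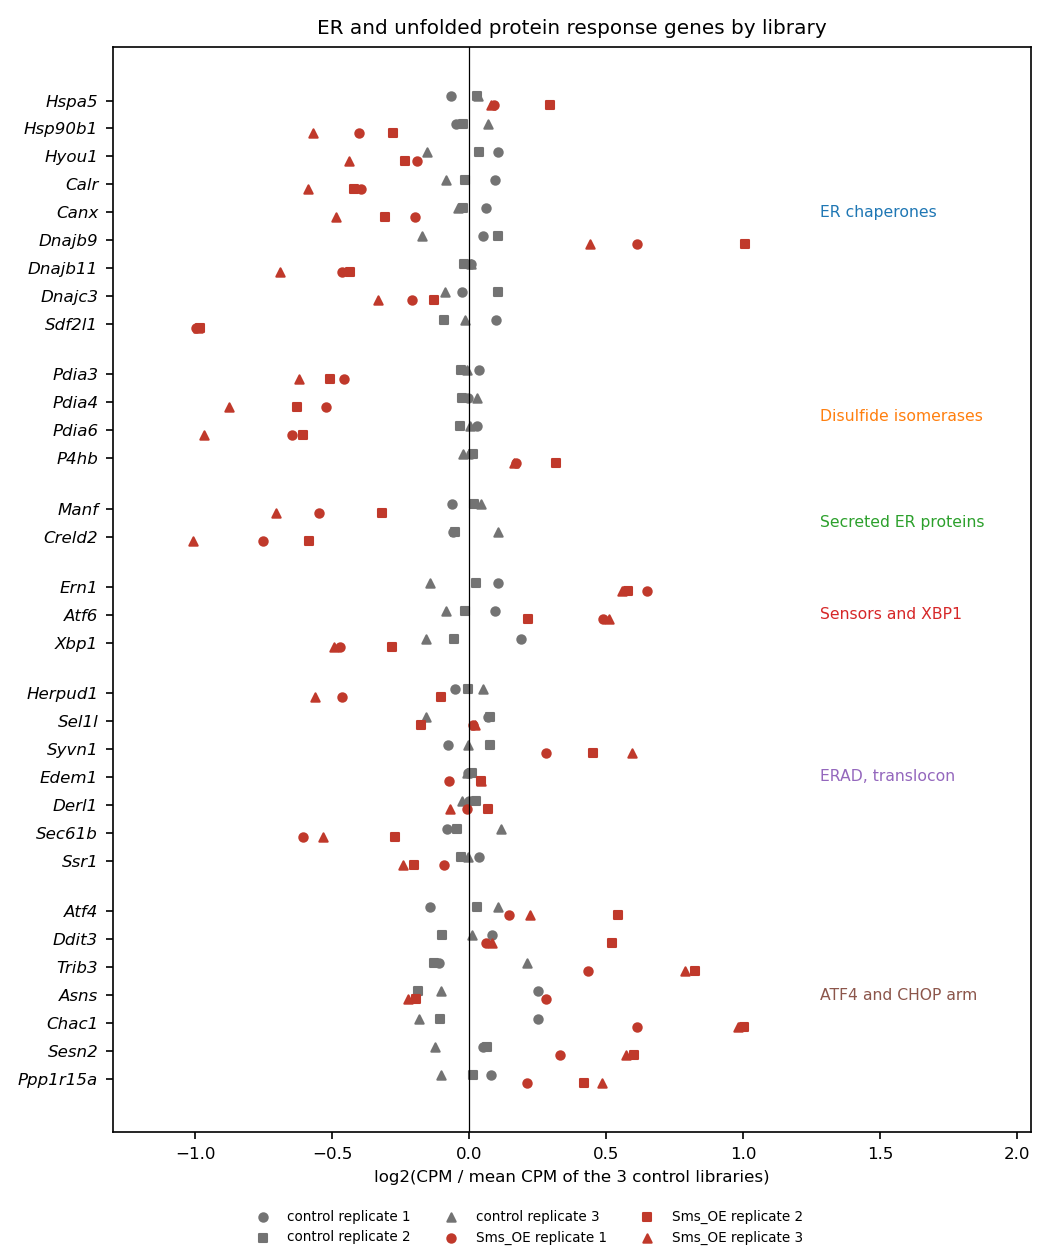
Each point is 1 library's level of a gene, as log2 of its CPM over the mean CPM of the 3 control libraries, with control in grey and Sms-OE in red and genes grouped by role. In 12 of the 15 ER folding genes every red point lies left of every grey point, and in 5 of the 7 genes of the ATF4 and CHOP arm every red point lies right of every grey point.

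Separation of the libraries showed the same division, but it was read from the same counts as the calls and is not separate support for them. All 3 Sms-OE libraries lay below all 3 controls in 16 of the 32 genes and above them in 11, while 5 overlapped. Over all genes tested 23.4% lay wholly below and 20.8% wholly above. Of the ER folding genes 12 lay below and 3 above, and of the ATF4 and CHOP arm 0 lay below and 5 above. The summed share of counts in the 32 genes was alike in both groups, at 0.734%, 0.686% and 0.647% in controls and 0.685%, 0.696% and 0.663% in Sms-OE.

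The most abundant of these genes per kilobase of its longest GENCODE transcript was Hspa5 (identifier ENSMUSG00000026864, GRCm38 chromosome 2, 34771970 to 34777547), which encodes BiP, the main ER chaperone and the partner that holds the sensors inactive. Its level was 293.5 CPM per kilobase in controls, ahead of Calr at 256.4, Ppp1r15a at 228.2, Hsp90b1 at 210.6 and Xbp1 at 209.3. At the other end were Chac1 at 5.45, Ern1 at 5.02, Asns at 4.99 and Trib3 at 2.35 CPM per kilobase. Hspa5 stood at 1031, 1101 and 1102 CPM in controls and at 1147, 1323 and 1140 CPM in Sms-OE. The Sms-OE libraries lay above the controls by a small margin, and the change did not pass (log2 fold change 0.16 ± 0.10 SE, adjusted p = 0.286).

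The partners of BiP went separate ways. Sdf2l1 (ENSMUSG00000022769, chromosome 16, 17130138 to 17132383), an ER protein that works with BiP and its J-domain co-chaperones, showed the largest fall of the 32. Its levels were 54.00, 47.28 and 49.91 CPM in controls and 25.28, 25.54 and 25.39 CPM in Sms-OE, a 1.98-fold fall (log2 fold change -0.99 ± 0.093 SE, adjusted p = 0.000194). Its 3 Sms-OE libraries were nearly equal and far below every control. Dnajb11, a J-domain co-chaperone that brings unfolded proteins to BiP, fell from 102.1, 100.4 and 102.2 CPM to 73.64, 75.20 and 63.04 CPM (1.44-fold, adjusted p = 0.00273).

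Dnajb9 (ENSMUSG00000014905, chromosome 12, 44205559 to 44210326) was the 1 ER folding gene that rose. It encodes ERdj4, a J-domain protein that acts in ERAD and restrains IRE1, and is a well-known XBP1 target. Its levels were 72.14, 74.95 and 61.80 CPM in controls and 106.6, 139.8 and 94.60 CPM in Sms-OE, a 1.63-fold rise (log2 fold change 0.71 ± 0.14 SE, adjusted p = 0.00539). The lowest Sms-OE library was above the highest control. Dnajc3, which encodes the eIF2 kinase inhibitor p58IPK, had 72.67, 79.62 and 69.71 CPM against 64.03, 67.72 and 58.83 CPM and did not pass (adjusted p = 0.104). Hyou1, a large ER chaperone that also acts as an exchange factor for BiP, had 136.3, 129.8 and 113.9 CPM against 110.9, 107.7 and 93.50 CPM (adjusted p = 0.0588). In both of these the groups did not overlap.

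The other large chaperones fell by less than Sdf2l1. Hsp90b1, the ER paralogue of HSP90 (GRP94) and a folding factor for integrins and Toll-like receptors, had 656.9, 667.9 and 711.1 CPM in controls and 513.8, 559.7 and 456.9 CPM in Sms-OE (1.33-fold lower, adjusted p = 0.0155). Calr, the soluble lectin chaperone calreticulin, had 598.0, 554.1 and 527.6 CPM and then 426.3, 418.2 and 372.5 CPM (1.38-fold lower, adjusted p = 0.00715). Canx, its membrane-bound relative calnexin, had 318.6, 300.4 and 296.3 CPM and then 266.0, 246.4 and 217.8 CPM (1.25-fold lower, adjusted p = 0.0331). None of the 3 had overlapping groups, but the calls of Hsp90b1 and Canx were near the threshold. Leaving out control replicate 2, control replicate 3 or Sms-OE replicate 3 gave Hsp90b1 adjusted p-values of 0.0505 to 0.0547. Leaving out any 1 library but Sms-OE replicate 1 gave Canx values of 0.0544 to 0.101.

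Of the 4 disulfide isomerases, which form and rearrange disulfide bonds in the ER, 3 fell. Pdia6 (ENSMUSG00000020571, chromosome 12, 17266545 to 17284770), which also trims IRE1 activity, had 271.4, 260.4 and 267.1 CPM in controls and 170.1, 174.9 and 136.3 CPM in Sms-OE, a 1.66-fold fall (log2 fold change -0.73 ± 0.11 SE, adjusted p = 0.00136). Pdia4 (ERp72) had 128.7, 126.8 and 131.6 CPM and then 89.92, 83.47 and 70.26 CPM (1.59-fold lower, adjusted p = 0.00146). Pdia3 (ERp57), which works with calreticulin and calnexin on glycoproteins and in MHC class I loading, had 490.5, 469.3 and 476.3 CPM and then 348.9, 336.5 and 311.3 CPM (1.44-fold lower, adjusted p = 0.00254). In all 3 the control libraries lay close together, and every Sms-OE library lay below them.

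P4hb, the classic isomerase PDI and the beta subunit of prolyl 4-hydroxylase, pointed the other way. Its levels were 584.9, 587.8 and 573.9 CPM in controls and 655.2, 725.7 and 653.0 CPM in Sms-OE. All Sms-OE libraries were above all controls, yet the change did not pass (log2 fold change 0.22 ± 0.092 SE, adjusted p = 0.104). It passed under scaling by library size alone (adjusted p = 0.0409) and in DESeq2's Wald test (0.0226).

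Both secreted ER stress proteins fell. Creld2 had 45.17, 45.35 and 50.53 CPM in controls and 27.92, 31.37 and 23.36 CPM in Sms-OE (1.71-fold lower, log2 fold change -0.77 ± 0.12 SE, adjusted p = 0.00175). Manf, an ER resident that binds BiP and acts as a trophic factor when secreted, had 90.81, 95.91 and 97.65 CPM and then 64.82, 76.10 and 58.23 CPM (1.43-fold lower, adjusted p = 0.00625). The groups did not overlap in either gene. The Manf value is uncertain in part, because its exons share 146 bases with Dcaf1 on the opposite strand and 14 with Rbm15b on the same strand, and the strand setting of the counting is not given in the sources used here.

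**Figure D2:**
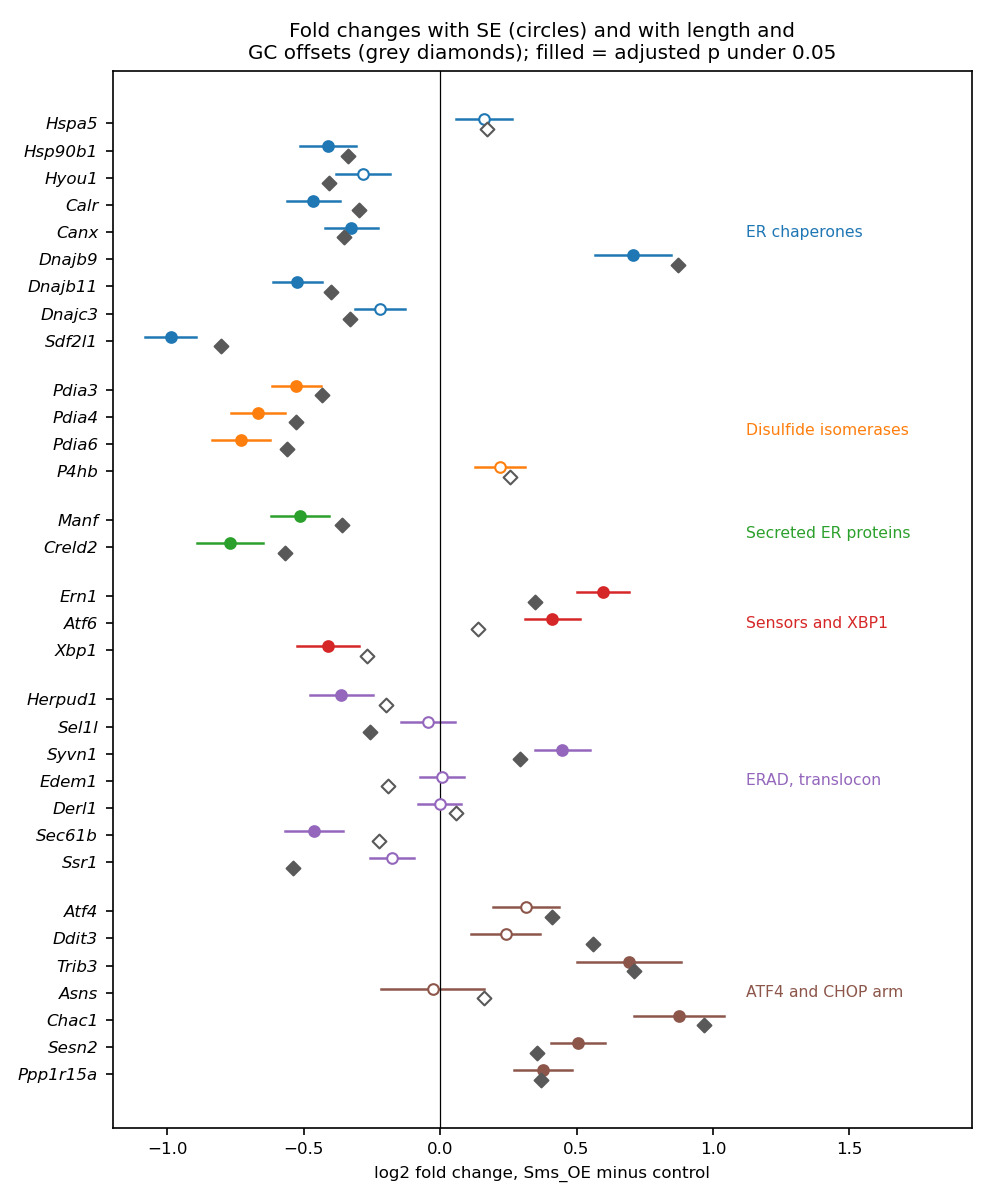
Coloured circles give each gene's log2 fold change, Sms-OE minus control, with bars of 1 SE, and grey diamonds give it after offsets for transcript length and GC content; filled symbols passed an adjusted p of 0.05. Sdf2l1 lies farthest left at -0.99 and Chac1 farthest right at 0.88, and the diamonds keep 12 of the 15 ER folding genes on the left.

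Of the 3 sensor branch genes, Ern1 and Atf6 rose and Xbp1 fell. Ern1 (ENSMUSG00000020715, chromosome 11, 106394650 to 106487852) encodes IRE1, the kinase and endoribonuclease that splices Xbp1. Its levels were 37.55, 35.51 and 31.61 CPM in controls and 54.78, 52.19 and 51.34 CPM in Sms-OE, a 1.51-fold rise (log2 fold change 0.60 ± 0.096 SE, adjusted p = 0.00203) with a wide gap between the groups. Atf6, the membrane-bound factor that is cut in the Golgi to free its active domain, had 67.97, 63.00 and 60.07 CPM and then 89.37, 73.92 and 90.78 CPM (1.33-fold higher, adjusted p = 0.0145). Without control replicate 2, control replicate 3 or Sms-OE replicate 3 its adjusted p was 0.0588 to 0.0687, and with length and GC offsets its log2 fold change was 0.14 (adjusted p = 0.272).

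Xbp1 (ENSMUSG00000020484, chromosome 11, 5520659 to 5525893) had 507.6, 429.0 and 400.0 CPM in controls and 321.6, 366.5 and 316.7 CPM in Sms-OE, 1.33-fold lower (log2 fold change -0.41 ± 0.11 SE, adjusted p = 0.0229). The highest Sms-OE library came close to the lowest control without reaching it. Counts per gene do not tell spliced from unspliced Xbp1, so the activity of IRE1 was not measured. The Xbp1 call was lost in 4 of the 6 fits that left out 1 library (without control replicates 1 or 2 or Sms-OE replicates 1 or 3, adjusted p 0.0577 to 0.0790), under library size alone (0.0544) and with length and GC offsets (0.10).

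The 7 genes of ERAD and the translocon had no common direction. Syvn1, the ubiquitin ligase HRD1 at the core of ERAD, rose from 43.57, 48.41 and 45.87 CPM to 55.82, 62.89 and 69.35 CPM (1.36-fold, adjusted p = 0.00929), though its exons share 91 bases with Mrpl49 on the opposite strand. Its adaptor Sel1l stood at 82.48, 82.79 and 70.35 CPM and at 79.27, 69.49 and 79.66 CPM, with overlapping groups (adjusted p = 0.78). Edem1, a lectin that sends misfolded glycoproteins to ERAD, ranged from 189.8 to 191.8 CPM in controls and from 181.3 to 196.6 CPM in Sms-OE (adjusted p = 0.962). Derl1, a subunit of the export channel, ranged from 128.2 to 132.9 CPM and from 124.3 to 136.8 CPM (adjusted p = 0.99). For Edem1 and Derl1 the Sms-OE libraries spread to both sides of the controls.

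Herpud1, a small ER membrane protein that organises the HRD1 complex, had 117.0, 120.9 and 125.7 CPM in controls and 87.93, 112.9 and 82.00 CPM in Sms-OE (1.29-fold lower, adjusted p = 0.0432). Its call was lost without any 1 library but Sms-OE replicate 2 (adjusted p 0.0717 to 0.140) and under 3 other scalings (0.0572 to 0.0736). Sec61b, a subunit of the channel through which new proteins enter the ER, had 67.30, 69.12 and 77.22 CPM and then 46.76, 59.05 and 49.18 CPM (1.38-fold lower, adjusted p = 0.0111). Ssr1, of the translocon-associated TRAP complex, had 125.1, 119.4 and 121.6 CPM and then 114.5, 106.2 and 103.1 CPM and did not pass (adjusted p = 0.131). With length and GC offsets Sec61b no longer passed (log2 fold change -0.22, adjusted p = 0.0750) and Ssr1 did (-0.54, adjusted p = 0.00171).

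In the ATF4 and CHOP arm the RNA of both factors lay in the higher direction without passing. Atf4 is controlled mainly at translation, so its RNA is an incomplete measure of it. It had 283.9, 319.5 and 336.9 CPM in controls and 346.7, 456.7 and 366.1 CPM in Sms-OE (log2 fold change 0.31 ± 0.12 SE, adjusted p = 0.0809). It passed under library size alone (0.0197), in DESeq2's Wald test (0.0353) and with length and GC offsets (0.0304). Ddit3, which encodes CHOP, had 49.36, 43.54 and 46.95 CPM and then 48.69, 66.96 and 49.46 CPM, with 1 high Sms-OE library and overlapping groups (adjusted p = 0.201). With length and GC offsets its log2 fold change was 0.56 (adjusted p = 0.00898). Ddit3 shares 68 exonic bases with Mars on the opposite strand.

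The 4 genes that rose in this arm are downstream of the factors. Chac1 (ENSMUSG00000027313, chromosome 2, 119351229 to 119354381), an enzyme that degrades glutathione, had 10.61, 8.286 and 7.849 CPM in controls and 13.65, 17.89 and 17.59 CPM in Sms-OE, the largest rise of the 32 at 1.84-fold (log2 fold change 0.88 ± 0.17 SE, adjusted p = 0.00449). Sesn2, a stress-induced inhibitor of mTORC1, rose from 65.76, 66.59 and 58.32 CPM to 80.02, 96.36 and 94.45 CPM (1.42-fold, adjusted p = 0.00517). Ppp1r15a, which encodes GADD34, the phosphatase subunit that reverses eIF2 phosphorylation, rose from 677.5, 647.8 and 597.6 CPM to 742.2, 857.7 and 896.7 CPM (1.30-fold, adjusted p = 0.0258). Trib3, a pseudokinase induced by CHOP, rose from 4.422, 4.367 and 5.517 CPM to 6.444, 8.445 and 8.225 CPM (1.62-fold, adjusted p = 0.0237). In all 4, Sms-OE replicate 1 was the lowest of its group and still above every control. The Trib3 call was lost without control replicates 1 or 2 or Sms-OE replicates 2 or 3 (adjusted p 0.0725 to 0.0987), and that of Ppp1r15a without control replicates 2 or 3 or Sms-OE replicates 2 or 3 (0.0681 to 0.107).

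Asns, the asparagine synthetase gene and a standard ATF4 target, did not share that direction. It had 11.98, 8.841 and 9.369 CPM in controls and 12.23, 8.786 and 8.630 CPM in Sms-OE (log2 fold change -0.027 ± 0.19 SE, adjusted p = 0.936), and the groups overlapped fully. Chac1 and Asns both carry the letters of the ATF4 element shown above, and the difference between their responses was not tested. ER folding genes with and without an ERSE both had more falls than rises. The 7 ER folding genes with an ERSE had 5 lower, 0 higher and a median log2 fold change of -0.41. The 6 searched genes without one had 4 lower, 1 higher and a median of -0.53.

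The calls of the ATF4 and CHOP arm did not stand without the 2 haemoglobin-rich libraries. That fit, chosen after the data were seen, leaves 1 Sms-OE library that is assumed to vary like the controls. There 0 of the 7 arm genes passed in edgeR's test, although all 7 had a positive log2 fold change (median 0.27) and 2 had an unadjusted p under 0.05. In the same fit 7 of the 15 ER folding genes were still lower and 1 higher (median -0.41), while the calls over all genes fell to 690 higher and 694 lower. The part of red cell RNA in these values was not tested. Leaving out control replicate 2, Sms-OE replicate 2 or Sms-OE replicate 3 alone left 2 of the arm's 4 calls. Over all leave-one-out fits 14 of the 21 called genes kept their call every time, 9 lower and 5 higher, and 0 of the 21 changed direction.

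The other genes of the pathway were counted in lists of related function. These counts, and those of the marker lists further below, stand beside 12.5% higher and 14.3% lower over all genes tested. No list was tested against those shares. Of 28 other ER folding genes tested, 6 were lower and 2 higher, with a median log2 fold change of -0.14. Erp29, a disulfide isomerase relative that helps secretory proteins fold, fell from 166.4 ± 9.6 to 115.9 ± 4.7 CPM (SD, n = 3; edgeR adjusted p = 0.00202), and Mogs, the first glucosidase of glycan trimming, fell from 58.72 ± 2.9 to 40.64 ± 4.5 CPM (adjusted p = 0.00468). The 2 that rose were Hspa13, an HSP70 relative, from 29.71 ± 1.6 to 40.49 ± 1.6 CPM (adjusted p = 0.00705), and Ero1l, the oxidase that recharges PDI and a CHOP and hypoxia target, from 291.1 ± 41 to 475.2 ± 97 CPM (adjusted p = 0.00836). Without both haemoglobin-rich libraries 1 of the list was lower and 0 higher in edgeR's test, with 5 and 2 at an unadjusted p under 0.05.

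Of 34 translocation and glycosylation genes tested, 17 were lower, 0 were higher and 17 did not pass in edgeR's test, with a median log2 fold change of -0.28, and 0 were higher at an unadjusted p under 0.05. DESeq2's Wald test and limma-voom each gave 16 lower and 0 higher. Rpn1, a subunit of the oligosaccharyltransferase, fell from 136.2 ± 6.0 to 92.20 ± 14 CPM (SD, n = 3; edgeR adjusted p = 0.00506). The signal peptidase subunits Spcs3 and Spcs2 fell from 87.93 ± 4.9 to 62.33 ± 4.5 CPM (adjusted p = 0.00343) and from 115.3 ± 3.3 to 87.78 ± 4.2 CPM (adjusted p = 0.0059). Srp9, of the signal recognition particle, fell from 75.05 ± 7.6 to 53.61 ± 2.7 CPM (adjusted p = 0.0057). The 17 became 6 without Sms-OE replicate 3, 9 with length and GC offsets, and 1 without both haemoglobin-rich libraries.

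Of 25 ERAD genes outside the 32, 4 were higher and 1 lower, with a median log2 fold change of -0.017, and 15 of the 25 had a negative fold change. Edem3 and Man1b1, which trim mannose from misfolded glycoproteins, rose from 21.83 ± 0.13 to 33.91 ± 0.54 CPM (SD, n = 3; edgeR adjusted p = 0.00138) and from 94.20 ± 6.5 to 156.6 ± 24 CPM (adjusted p = 0.00175). Herpud2, the relative of Herpud1, rose from 48.73 ± 5.3 to 66.10 ± 3.8 CPM (adjusted p = 0.0105). Vcp, the ATPase that pulls ERAD clients out of the membrane, fell from 259.1 ± 25 to 196.8 ± 12 CPM (adjusted p = 0.015). The fourth that rose, named after its values were seen, was Ube2j1, an ERAD ubiquitin-conjugating enzyme gene (log2 fold change 0.25, adjusted p = 0.0446).

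Among 17 other genes of the sensors and of their processing, 5 were lower and 1 higher. The lower ones included Rtcb, the ligase that joins Xbp1 exons after IRE1 has cut them, from 100.2 ± 9.3 to 73.17 ± 6.6 CPM (SD, n = 3; edgeR adjusted p = 0.00904), and its cofactor gene Zbtb8os, from 22.35 ± 4.1 to 11.49 ± 1.6 CPM (adjusted p = 0.00257). Bloc1s1, an mRNA that IRE1 can cleave, fell from 35.27 ± 5.6 to 24.16 ± 0.67 CPM (adjusted p = 0.00963). Wfs1, the ER membrane protein wolframin, fell from 7.102 ± 0.46 to 3.469 ± 0.77 CPM (adjusted p = 0.00601). Named after their values were seen, Creb3, an ER-bound transcription factor gene, fell (log2 fold change -0.32) and Map3k5, the stress kinase ASK1 gene, rose (0.42). Without both haemoglobin-rich libraries 0 of the 17 passed in edgeR's test, with 4 lower and 1 higher at an unadjusted p under 0.05.

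Of 13 genes on the list of eIF2 kinases, eIF2 and eIF2B, which also holds Ppp1r15b, Nck1 and Dnajc1, 3 were lower and 2 higher. Eif2s1, the subunit that the kinases phosphorylate, fell from 85.43 ± 0.66 to 56.45 ± 4.9 CPM (SD, n = 3; edgeR adjusted p = 0.00147). The exchange factor subunits Eif2b2 and Eif2b5 fell from 45.06 ± 3.4 to 30.01 ± 2.0 CPM (adjusted p = 0.00275) and from 37.74 ± 2.8 to 28.00 ± 2.7 CPM (adjusted p = 0.0169). Ppp1r15b, which encodes the constitutive counterpart of the Ppp1r15a product, rose from 128.4 ± 2.6 to 173.5 ± 7.7 CPM (adjusted p = 0.00369). The other gene that rose, named after its values were seen, was Eif2ak3, which encodes the sensor PERK, from 34.19 ± 0.25 to 43.34 ± 5.1 CPM (adjusted p = 0.0345). The list's 2 higher calls became 1 when any 1 library but Sms-OE replicate 2 was left out, and also with length and GC offsets.

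The 28 other ATF4 targets tested did not move together, with 4 higher, 5 lower and a median log2 fold change of 0.069. Slc7a11, the cystine transporter, rose from 296.6 ± 21 to 909.4 ± 220 CPM (SD, n = 3; 3.07-fold, edgeR adjusted p = 0.000231), and Slc38a2, a neutral amino acid transporter, rose from 167.9 ± 4.8 to 346.9 ± 10 CPM (2.07-fold, adjusted p = 0.00012). Jdp2, an AP-1 family factor, rose from 87.27 ± 2.8 to 157.3 ± 19 CPM (adjusted p = 0.000481). Psat1, an enzyme of serine synthesis, fell from 54.52 ± 9.0 to 27.50 ± 4.3 CPM (1.98-fold, adjusted p = 0.00138). Genes named after their values were seen were Gdf15, a stress cytokine that rose (log2 fold change 0.53), and the folate, proline and alanine enzyme genes Shmt2, Mthfd2, Aldh18a1 and Gpt2, which fell (log2 fold change -0.34 to -0.65). The 5 lower calls became 2 without control replicate 2. With length and GC offsets 6 of the list were higher and 3 lower. DESeq2's Wald test and limma-voom each gave 6 higher and 5 lower.

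Of 12 genes of ER stress death, 2 were higher and 2 lower, close to the 12.5% and 14.3% over all genes tested. With length and GC offsets 1 was higher and 2 lower. Bcl2l11, which encodes the CHOP-induced killer protein BIM, rose from 132.9 ± 13 to 178.6 ± 34 CPM (SD, n = 3; edgeR adjusted p = 0.0394), and Ero1l is also on this list. The mitochondrial pore proteins fell, Bak1 from 129.2 ± 6.3 to 97.53 ± 6.5 CPM (adjusted p = 0.00709) and Bax from 89.52 ± 4.3 to 71.72 ± 4.2 CPM (adjusted p = 0.0201).

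**Figure D3:**
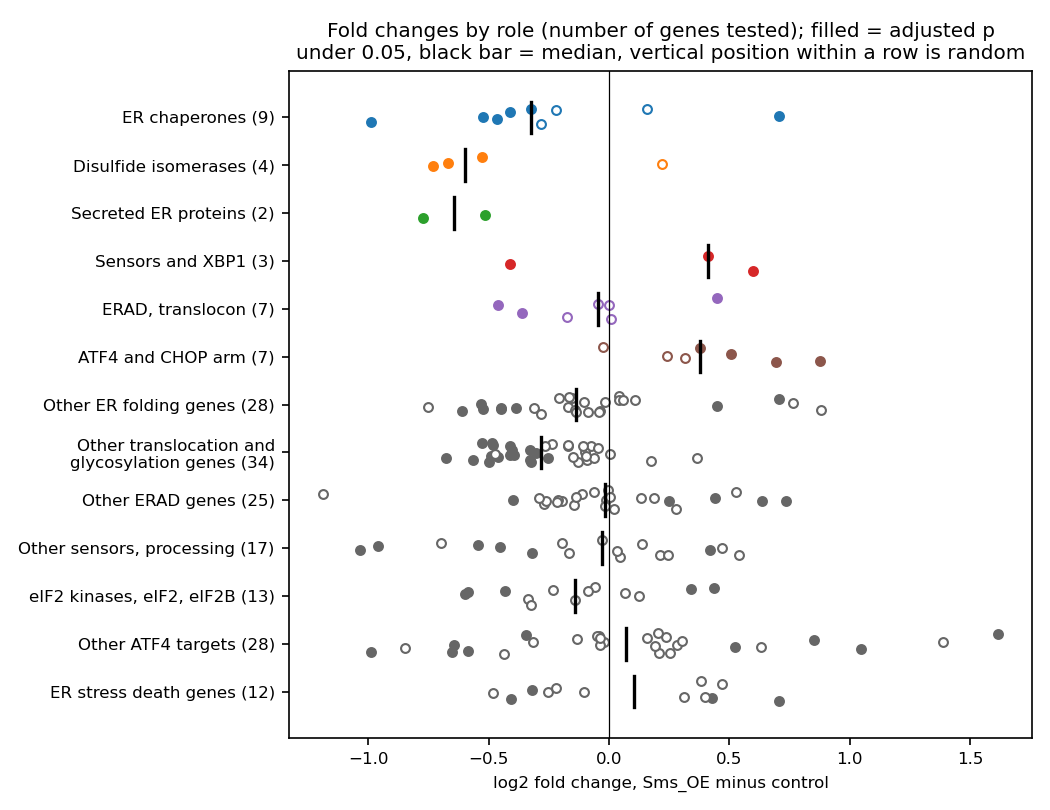
Each point is a gene's log2 fold change, Sms-OE minus control, by role for the 32 genes (coloured) and by list for the other pathway genes (grey); filled points passed an adjusted p of 0.05 and black bars are medians. The medians run from -0.64 for the 2 secreted ER proteins to 0.41 for the sensor genes, and the translocation and glycosylation list has 17 filled points, none of them above 0.

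Chaperones of other compartments were set beside the ER. Of 9 mitochondrial chaperone genes 8 were lower and 0 higher (9 lower and 0 higher at an unadjusted p under 0.05), with a median log2 fold change of -0.55. DESeq2's Wald test also gave 8 lower and 0 higher, and edgeR's test without both haemoglobin-rich libraries left 3 lower. Hspe1, the mitochondrial HSP10, fell from 120.5 ± 4.3 to 56.71 ± 10 CPM (SD, n = 3; edgeR adjusted p = 0.000444). Of 20 cytosolic heat shock genes 8 were lower and 5 higher, the latter being Hspa1a, Hspa1b, Hspa4l, Dnajb1 and Hsf1, with the last 3 named after their values were seen. Cct3, of the chaperonin that folds actin and tubulin, fell from 144.9 ± 4.3 to 93.59 ± 9.6 CPM (adjusted p = 0.00137), while the inducible HSP70 gene Hspa1a rose from 170.0 ± 7.7 to 309.3 ± 50 CPM (adjusted p = 0.000969). Hspa1a shares reads with its near-identical copy Hspa1b, so how their counts divide is uncertain.

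Fold changes across the whole table moved with transcript length. With the genes divided by length into 4 bins of equal size, in the bin with the shortest transcripts 233 were higher and 808 lower (median log2 fold change -0.14), and in the bin with the longest 1198 were higher and 331 lower (median 0.19). Of the 32 genes, 4 were in the shortest bin, among them Sdf2l1 and Creld2, and 7 were in the longest, among them Ern1 and Atf6. With per-library offsets for length and GC content, 17 of the 21 calls stood, Atf6, Xbp1, Herpud1 and Sec61b were lost, and Hyou1, Dnajc3, Sel1l, Ssr1, Atf4 and Ddit3 were gained. Over all 18277 genes that fit called 1792 higher and 2114 lower. The ER folding genes then had 12 lower and 1 higher (median -0.36), and the ATF4 and CHOP arm had 6 higher and 0 lower (median 0.41). Sdf2l1 was then at -0.80 (adjusted p = 0.000776), Ern1 at 0.35 (0.0168) and Chac1 at 0.97 (0.00368).

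**Figure D4:**
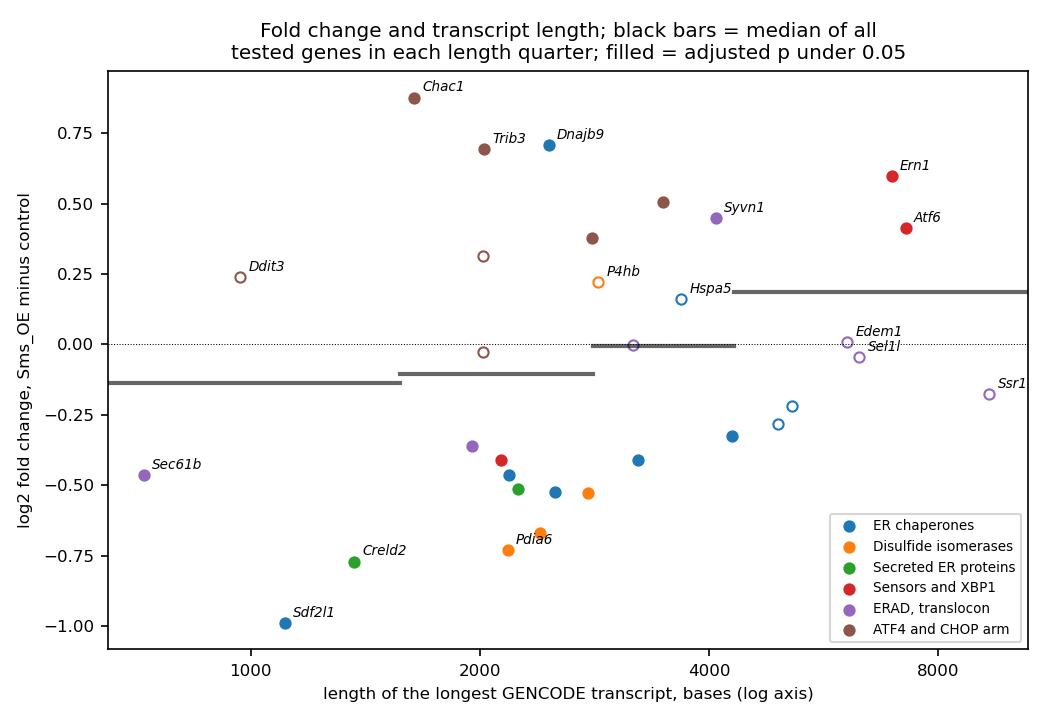
Log2 fold change, Sms-OE minus control, of the 32 genes against the length in bases of the longest GENCODE transcript (log axis), coloured by role, with filled points past an adjusted p of 0.05. Black bars give the median of all tested genes in each of the 4 length bins, from -0.14 for the shortest to 0.19 for the longest, and the ER folding genes that fell lie below the bar of their bin.

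Markers of other cells also moved between the groups. Hepatocytes carry a large secretory apparatus, and 15 hepatocyte markers, led by Alb and Trf, summed to 805.3 to 1083 CPM in controls and 395.3 to 609.3 CPM in Sms-OE, with 13 of the 15 lower and 0 higher. Trf was not among the lower ones, with means of 271.0 CPM in controls and 279.9 CPM in Sms-OE. None of these 15 was at 0 in every library. Of the 10 hepatoma and oncofetal markers, led by Afp and Krt18, Igf2 and Dlk1 were at 0 in every library, and the sum was 122.0 to 156.8 CPM against 110.0 to 151.9 CPM. Of the 7 tested, 2 were lower, 0 were higher and 5 did not pass. The 2, named after their values were seen, were Rhox5, from 9.931 to 0.7116 CPM (edgeR adjusted p = 0.000263), and Gpc3, from 8.0 to 3.177 CPM (adjusted p = 0.00917). The mean log2 level of hepatocyte and hepatoma markers separated the groups fully, at 2.51, 2.64 and 2.98 in controls and 1.07, 1.01 and 0.71 in Sms-OE. A fit with that mean as a covariate therefore has little left to compare. It called 0 of the 18277 genes, with 1108 at an unadjusted p under 0.05, 1 of them among the 32, and the ER folding median was then -0.036 and that of the ATF4 and CHOP arm 0.039. Hepatocyte RNA and the group cannot be told apart in that fit.

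Plasma cells are the other professional secretors. Their 10 markers, led by Ighm and Prdm1, summed to 229.7 to 239.1 CPM in controls and 242.1 to 279.1 CPM in Sms-OE, with 2 of 9 tested higher and 1 lower. The 12 dendritic cell markers, led by Bst2 and Tcf4, summed to 310.6 to 336.7 CPM and 221.0 to 254.1 CPM (1 higher, 4 lower), and the 10 endothelial markers, led by Pecam1 and Eng, to 175.6 to 196.8 CPM and 131.3 to 172.9 CPM (1 higher, 7 lower). Kupffer cell markers, led by Slc40a1 and Cd5l, were on the other side, at 455.9 to 482.5 CPM and 630.5 to 773.4 CPM, with 9 of 12 higher and 1 lower. Fibroblast and stellate markers, led by Dcn and Acta2, summed to 78.66 to 97.12 CPM and 111.9 to 150.6 CPM (3 of 9 higher, 0 lower). The sums of B cell, T and NK cell, neutrophil and macrophage markers overlapped between the groups. Single markers among them still changed, with 3 higher and 5 lower of 14 for macrophages, 3 higher and 0 lower of 12 for neutrophils, 1 higher and 0 lower of 12 for T and NK cells, and 0 of 8 for B cells (0 at an unadjusted p under 0.05 in edgeR's test, and 0 called by DESeq2's Wald test). The part of these cells in the values of the 32 genes was not tested.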

How the data were processed

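Poly(A) RNA of 6 libraries was sequenced. The submitters' processing notes name StringTie 2.1.6, DESeq2, HISAT2 2.2.1, cutadapt 1.9 and FastQC 0.11.9; the sources used here give neither genome build nor strand setting. The deposited table holds whole-number estimated counts per gene from the authors, without normalization. Of its 55401 rows, 55141 identifiers matched GENCODE M21 and 25690 rows were at 0 in every library. These counts were filtered with filterByExpr, scaled by TMM and tested with edgeR 4.0.16 (robust glmQLFit and glmQLFTest, R 4.3.3), with Benjamini-Hochberg adjustment at 0.05. CPM use the TMM scaling. The fit was tested on simulated data. Alternatives were DESeq2 1.42.0, limma 3.58.1 voom, other scalings, filters and thresholds, length and GC offsets, the hepatocyte covariate and left-out libraries; leaving out the haemoglobin-rich libraries was chosen after seeing the data. Of each pathway list, up to 4 genes past the threshold by smallest p were named; of marker lists, the 2 of highest mean CPM. The 32 members and all lists were chosen with earlier results of these data known. Promoter sequences are from RefSeq (GRCm38.p6); coordinates of genes are from GENCODE. With 49833764 to 58154006 counts per library, the 3 libraries a group limit precision.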

Additional observations from a re-analysis of the deposited data

How the results depend on the processing

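The median log2 fold change of the 15 ER folding genes was negative and that of the ATF4 and CHOP arm positive in all settings run, but with the hepatocyte and hepatoma covariate they were only -0.036 and 0.039, against 0.044 over all genes. Leaving out 1 library gave 1366 to 2015 higher and 1684 to 2473 lower over all genes (2293 and 2615 with all libraries; the lowest of both without control replicate 2, and 1498 higher without control replicate 3), 5 to 8 higher and 9 to 12 lower of the 32 (5 without control replicate 2 or Sms-OE replicate 3), 2 to 4 higher in the ATF4 and CHOP arm, 8 to 10 lower and 1 higher of the ER folding genes, and 1 to 2 lower of ERAD and the translocon (1 without any library but Sms-OE replicate 2). At an adjusted p of 0.01 there were 1077 higher and 1219 lower over all genes, 5 and 8 of the 32, 2 higher in the ATF4 and CHOP arm and 0 lower of ERAD and the translocon (edgeR; 2 at an unadjusted p under 0.05). Without both haemoglobin-rich libraries there were 690 and 694 over all genes, 3 higher of the 32, and 0 higher in the ATF4 and CHOP arm and in ERAD and the translocon.

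Scaling by library size alone gave 2521 higher and 1788 lower over all genes and 10 and 10 of the 32. It and DESeq2's Wald test called 2 ER folding genes higher. ERAD and the translocon had 1 lower with DESeq2 size factors, upper-quartile factors, library size alone or no robust step. With the hepatocyte and hepatoma covariate 0 genes were called, and 10 of the 32 changed sign against their call: Hsp90b1 to 0.28, Pdia4 to 0.052, Manf to 0.17, Creld2 to 0.25, Herpud1 to 0.33, Sec61b to 0.12, Atf6 to -0.18, Chac1 to -0.42, Sesn2 to -0.22 and Ppp1r15a to -0.43, with adjusted p from 0.902 to 0.992 in edgeR's test. The cause was not tested.

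Deviations from the group mean correlated at 0.31, 0.083 and -0.098 between libraries with the same replicate number. With 3 libraries a group, these correlations cannot decide whether the numbers pair the libraries. A replicate block gave 2117 higher and 2415 lower over all genes, 8 and 14 of the 32 (Hyou1 then passed, adjusted p = 0.0312), 1 and 11 of the ER folding genes, 4 and 0 of the ATF4 and CHOP arm and 1 and 2 of ERAD and the translocon. Not every library correlated best with its own number.

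In the other pathway lists, leaving out 1 library gave 6 to 17 lower translocation genes, 2 to 4 lower ATF4 targets (5 with all libraries), 4 to 7 lower ER folding genes (4 without control replicate 1, control replicate 3 or Sms-OE replicate 3; 6 with all), 0 to 2 lower ERAD genes (0 without control replicate 1, control replicate 2 or Sms-OE replicate 3), and 1 to 2 higher (2 without Sms-OE replicate 2) and 2 to 4 lower genes (2 without control replicate 2 or control replicate 3) of the eIF2 list. Death genes had 1 to 2 higher (1 without any 1 control) and 1 to 2 lower (1 without control replicate 1, control replicate 2 or Sms-OE replicate 3). Without both haemoglobin-rich libraries edgeR's test gave 3 higher and 1 lower of the other ATF4 targets, 2 and 1 of the other ERAD genes, 1 and 1 of the eIF2 list, 3 and 3 of the cytosolic heat shock genes, and 0 of the death genes (3 higher and 3 lower at an unadjusted p under 0.05).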
